A study of Homo sapiens with 20 samples.

Results

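Methylation of lysine 9 on histone H3 (H3K9) is placed by several enzymes besides EHMT1 and EHMT2, and 10 genes of this machinery are described here: the methyltransferases SUV39H1, SUV39H2, SETDB1 and SETDB2, the corepressor TRIM28, the HP1 proteins CBX1, CBX3 and CBX5 that bind the mark, and the demethylases KDM4A and KDM4C. They were chosen by gene symbol and were found among 57773 gene identifiers in both count tables. RNA was sequenced from LNCaP, a prostate adenocarcinoma cell line that expresses the androgen receptor and responds to androgen. In the silencing experiment, cells received 20 nM of an EHMT1 siRNA pool (siEHMT1) or of a nontargeting pool (siNTC) for 2 days, with 2 samples in each group. In the expression experiment, LNCaP cells had been infected with a tetracycline-inducible lentivirus and selected with puromycin, giving 4 stable lines that carry V5-tagged EHMT1 as the wild type (WT) or with either or both of its neighbouring lysines changed to arginine (K450R, K451R and K450RK451R, named by the position of the residue). Each line was given 0.25 µg/mL doxycycline (Dox) or vehicle (Veh) for 2 days. All 4 lines also kept their own EHMT1 gene, and no line without an EHMT1 insert was analysed here, so that an effect of Dox itself and an effect of induced EHMT1 cannot be told apart. Nothing in the labels says that the siRNA samples came from separate cultures, so the p-values measure the spread between these samples, which may be technical.

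H3K9 methylation marks silent chromatin. SUV39H1 and SUV39H2 add the second and the third methyl group in pericentric heterochromatin, and SETDB1 does so at retroelements and other targets, to which TRIM28 recruits it through zinc finger proteins of the KRAB family. HP1 proteins read the mark with a chromodomain and compact the chromatin, while the KDM4 enzymes remove the higher methylation states.

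Some of these genes share their start region with a gene on the opposite strand, and the bases between the starts are shown for the 3 pairs with a short gap because the neighbours are compared with the genes further on. The stretches were read from GRCh37 on the strand of the gene named first, 5′ to 3′, and no annotated exon covers them. Capitals mark the GC box (GGGCGG) and the CCAAT box (CCAAT), each searched on both strands, so that ATTGG is a CCAAT box on the other strand.
CBX5/HNRNPA1, chr12:54673918-54673976, minus strand: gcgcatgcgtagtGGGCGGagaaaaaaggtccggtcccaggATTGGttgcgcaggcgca
SUV39H2/RP11-398C13.6, chr10:14920727-14920818, plus strand: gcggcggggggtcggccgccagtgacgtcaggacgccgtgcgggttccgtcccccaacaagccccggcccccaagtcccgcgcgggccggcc
SETDB2/CAB39L, chr13:50018201-50018409, plus strand: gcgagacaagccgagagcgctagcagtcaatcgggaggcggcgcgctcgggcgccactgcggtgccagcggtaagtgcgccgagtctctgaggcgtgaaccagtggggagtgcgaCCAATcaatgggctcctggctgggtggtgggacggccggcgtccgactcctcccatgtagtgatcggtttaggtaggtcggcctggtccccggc
The 59 bases between CBX5 and HNRNPA1 held 1 GC box and 1 CCAAT box. Among 27305 RefSeq promoters (GRCh38.p14), 22.9% held a GC box and 9.71% a CCAAT box in the 59 bases before the start. In the 209 bases between SETDB2 and CAB39L there was 1 CCAAT box, which 29.7% of RefSeq promoters held in a window of this length. The 92 bases between SUV39H2 and RP11-398C13.6 had neither motif. HNRNPA2B1 starts inside CBX3, and the genes overlap by 368 bases on opposite strands. In the 250 bases before the first RefSeq start listed, both boxes, the E-box CACGTG, an NRF1 site and an E2F site were looked for. This was done in 9 of the 10 genes, all but TRIM28. The E-box stood before SETDB1 (1 copy), CBX5 (2 copies) and KDM4C (2 copies), and in the same window of 6.49% of all promoters. The GC box stood before SUV39H2 (2 copies), CBX3 (1) and CBX5 (1), and in 42.3% of all promoters. The CCAAT box stood before SETDB2 (2 copies), CBX5 (1) and KDM4A (3), and in 33% of them. None of the 9 genes had the NRF1 or the E2F site, which 1.13% and 0.553% of all promoters held. Enrichment of these motifs was not tested.

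The samples were deep enough to count every one of the 10 genes. Totals were 5593400 to 12438006 counts per siRNA sample. In the stable lines, columns 1 and 2 of a condition differed by no more than counting noise (chi-square per degree of freedom 0.995 to 1.02), so they were summed and counted as 1 sample, with 8436791 to 12407739 counts per condition. Between the siRNA samples of a group the value was 13.4 or 61.6, and 6.17 or 6.58 without 2 pseudogenes that resemble ribosomal RNA. Levels are given as CPM (counts scaled to the TMM-corrected library size) and, where genes are compared with each other, as RPKM (CPM per kilobase of merged exons). All 8 LNCaP markers examined, among them KLK3 at 2917 to 8322 CPM, were present in all samples (summed level 6144 to 12295 CPM). Of 5 markers of other cell types, PTPRC, KRT5 and TP63 were at 0, DCN had at most 1 count, and COL1A1 was at 15.3 to 40.8 CPM. EHMT1 itself stood at 85.7 ± 2.94 CPM with siNTC and at 30.0 ± 1.07 CPM with siEHMT1 (SD, n = 2), and its log2 fold change was -1.51 (edgeR quasi-likelihood test, Benjamini-Hochberg adjusted p = 1.48e-07). Dox raised it from 80.3 ± 7.71 to 757 ± 79.1 CPM (SD, n = 4 lines), by 3.23 on the log2 scale (edgeR adjusted p = 1.02e-23) and in each line.

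TRIM28 was the most abundant of the 10 genes per exon length in all 12 samples and conditions. In siNTC cells the mean levels ran from 88.7 RPKM for TRIM28 through CBX3 (24.7), CBX1 (16.3), KDM4A (12.1), CBX5 (12.1), SETDB1 (8.61), SUV39H2 (6.05), SUV39H1 (5.36) and KDM4C (2.73) to SETDB2 (2.17). The siNTC samples of KDM4A and CBX5 overlapped, and no other neighbours in this order did. In Veh-treated lines the order was TRIM28 (72 RPKM), CBX1 (28.3), CBX3 (18.2), KDM4A (15.9), SETDB1 (10.0), CBX5 (9.30), KDM4C (5.79), SUV39H1 (3.85), SUV39H2 (2.47) and SETDB2 (2.23). There the ranges of CBX3 and KDM4A, of SETDB1 and CBX5, of SUV39H1 and SUV39H2 and of SUV39H2 and SETDB2 overlapped. SETDB2 had the lowest RPKM in 9 of the 12 samples and conditions. Both orders depend on the exon length assigned to each gene. By CPM, CBX5 (181) stood above CBX3 (119) and CBX1 (49.8) in siNTC cells. In Veh-treated lines it did so as well (140 CPM, against 87.9 and 86.3). In bulk RNA of a cell line, fewer cells that express a gene and less RNA per cell cannot be told apart.

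**Figure D1:**
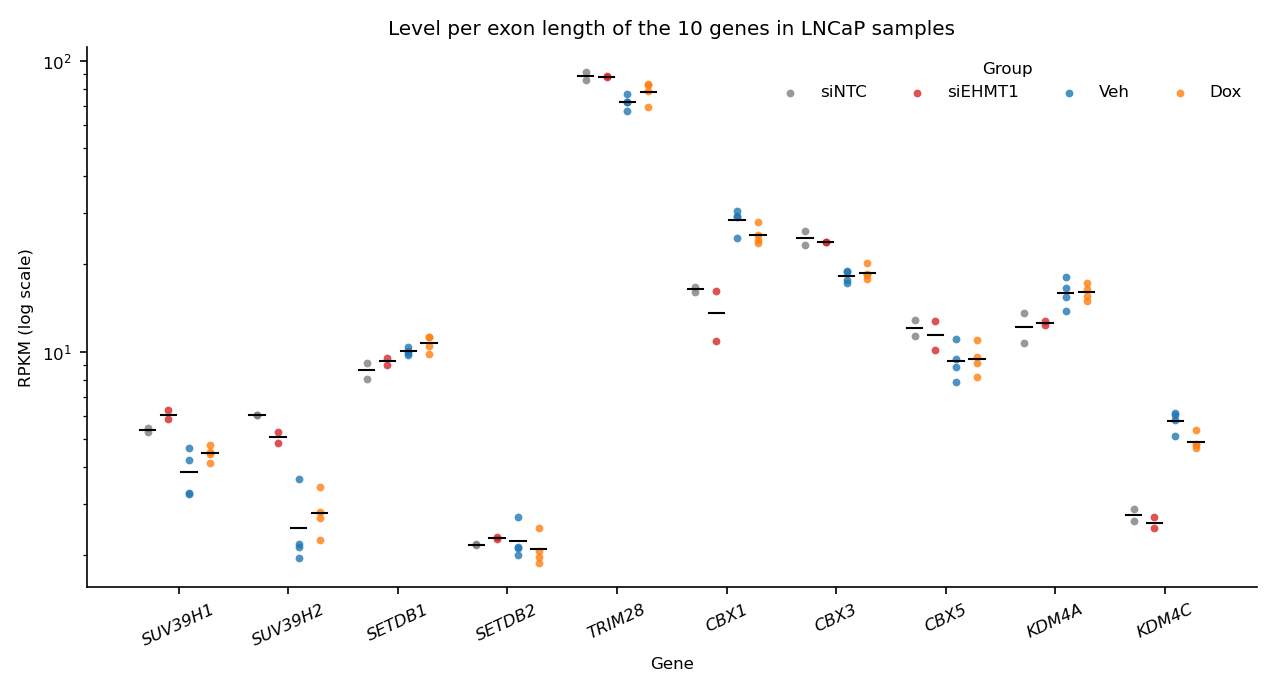
Level of the 10 genes in RPKM (log axis) in each siRNA sample and each stable-line condition. Points are samples or conditions, bars are group means; TRIM28 lies above all other genes in every group, and KDM4C lies higher in the stable lines (blue, orange) than in the siRNA samples (grey, red).

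Several genes stood at different levels in the silencing and the expression experiment. KDM4C averaged 28.2 CPM in siNTC cells and 59.7 CPM in Veh-treated lines, a ratio of 2.12, and CBX1 averaged 49.8 and 86.3 CPM, a ratio of 1.73. SUV39H2 went the other way, with 21.6 CPM in siNTC cells and 8.82 CPM in the lines, a ratio of 2.45 in favour of siNTC. For every gene except SETDB2, the siNTC samples and the 4 Veh conditions did not overlap. The share of all genes for which this held was not determined. The tables were scaled separately and the experiments differ in transfection, selection and culture, so these differences were not tested and their sources cannot be told apart.

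Silencing of EHMT1 was compared first. None of the 10 genes passed an adjusted p of 0.05 by edgeR (19 of 14532 genes did, 0.131%, of which 10 were lower and 9 higher, or 5 and 8 with upper-quartile scaling), and none had an unadjusted p under 0.05, against 9.55% of all genes. The count of members called was also 0 with DESeq2 and limma-voom. DESeq2 gave no adjusted p to SUV39H1, SUV39H2, SETDB2 and KDM4C, so it could not call them. Among the 10 genes 4 had a positive and 6 a negative log2 fold change, from -0.28 to 0.18. Their median was -0.027, beside -0.0021 over all genes tested. A p that misses the threshold does not show that the levels were alike: the 95% intervals together span 0.670-fold to 1.42-fold.

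Among the methyltransferases, SUV39H2 (ENSG00000152455, GRCh37 chr10:14920819-14946314) had 21.6 and 21.5 CPM in siNTC samples 1 and 2, and 17.3 and 18.9 CPM in siEHMT1 samples 1 and 2. Both siEHMT1 samples lay below both siNTC samples, as they did for 19.8% of all genes. The log2 fold change was -0.25 (SE 0.15, 95% interval -0.57 to 0.065, edgeR adjusted p = 0.626). Its relative SUV39H1 (ENSG00000101945, chrX:48553945-48567407) had 17.1 and 17.6 CPM with siNTC and 18.9 and 20.3 CPM with siEHMT1. Here both siEHMT1 samples lay above, as for 19.9% of all genes, with a log2 fold change of 0.18 (interval -0.15 to 0.50). SETDB2 (ENSG00000136169, chr13:50018410-50069139), a relative of SETDB1 expressed at a lower level, also lay above in both samples, at 15.2 and 15.0 against 14.4 and 14.4 CPM. SETDB1 (ENSG00000143379, chr1:150898739-150937220) had 67.5 and 59.5 CPM with siNTC and 66.5 and 69.9 CPM with siEHMT1, and the groups overlapped.

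TRIM28 (ENSG00000130726, chr19:59055431-59062089) had 395.0 and 369 CPM with siNTC and 382 and 378 CPM with siEHMT1. The groups overlapped, and the interval of the log2 fold change, -0.19 to 0.17, was the narrowest of the 10.

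Of the HP1 genes, CBX1 (HP1 beta; ENSG00000108468, chr17:46147414-46178840) had the most negative log2 fold change, but it rested on 1 library. Its levels were 50.7 and 48.8 CPM with siNTC and 49.3 and 33.1 CPM with siEHMT1, so siEHMT1 sample 2 alone was low. The log2 fold change was -0.28 (SE 0.14, interval -0.58 to 0.025, edgeR adjusted p = 0.563), and it was -0.013 without siEHMT1 sample 2 and -0.59 without siEHMT1 sample 1. CBX3 (HP1 gamma; ENSG00000122565, chr7:26240782-26253227) had 113 and 126 CPM with siNTC and 116 and 116 CPM with siEHMT1. CBX5 (HP1 alpha; ENSG00000094916, chr12:54624726-54673917) had 170 and 193 CPM with siNTC and 153 and 191 CPM with siEHMT1. Neither gene separated the groups. For the demethylases the same was true. KDM4A (ENSG00000066135, chr1:44115820-44171189) had 70.5 and 55.3 CPM with siNTC and 66.2 and 64.0 CPM with siEHMT1, and KDM4C (ENSG00000107077, chr9:6720863-7175648) had 29.6 and 26.9 CPM with siNTC and 27.8 and 25.5 CPM with siEHMT1.

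**Figure D2:**
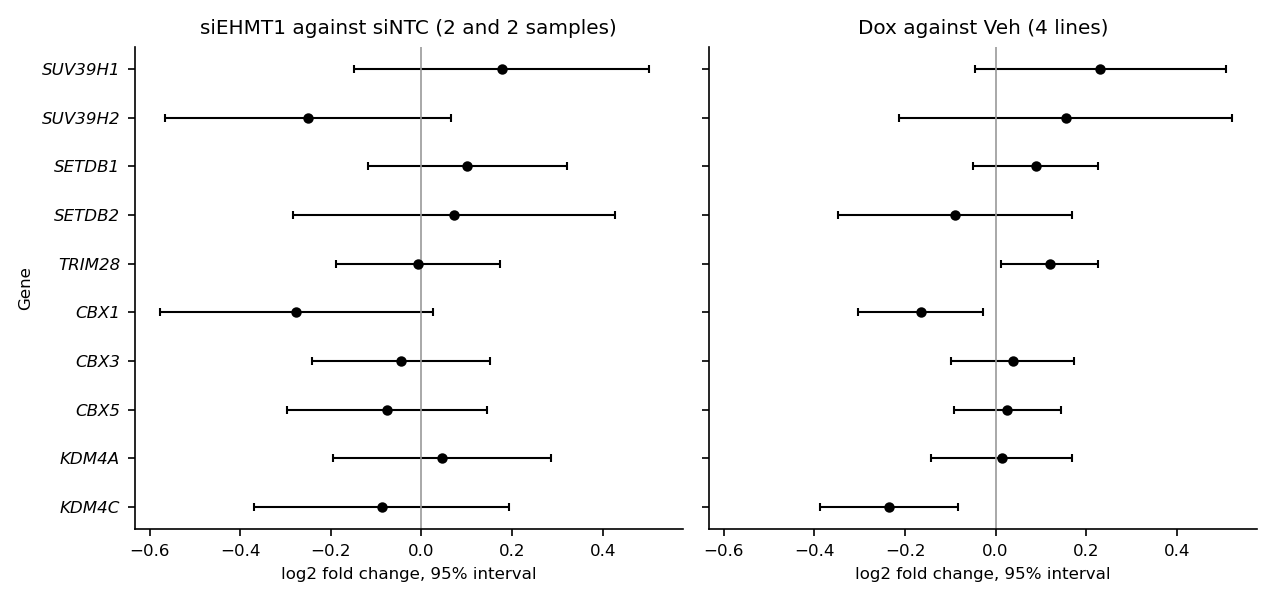
Log2 fold change of each gene with its 95% interval from edgeR, for siEHMT1 against siNTC (left) and Dox against Veh over the 4 lines (right). On the left every interval includes 0; on the right those of TRIM28 (above 0), CBX1 and KDM4C (below 0) do not, before adjustment for the number of genes tested.

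The next comparison was Dox against Veh with the 4 lines as samples and the line as a block. Again none of the 10 genes passed an adjusted p of 0.05 by edgeR (298 of 14105 genes did, 2.11%, of which 213 were lower and 85 higher, or 182 and 116 with upper-quartile scaling). Unadjusted p was under 0.05 for 3 of them, KDM4C, CBX1 and TRIM28, against 14.4% of all genes. DESeq2, which gave SUV39H2 no adjusted p, and limma-voom also called none. The log2 fold changes were positive for 7 and negative for 3, from -0.24 to 0.23, with a median of 0.031 beside 0.0050 over all genes. The intervals together span 0.764-fold to 1.44-fold, and the Dox and Veh conditions overlapped for all 10. SETDB2, CBX1 and KDM4C were lower with Dox in all 4 lines, as were 10.1% of all genes, and SUV39H1, SETDB1 and TRIM28 were higher in all 4, as were 10.7%. Scaling by the library total in place of TMM raised every ratio of a line by the same amount, 0.13 on the log2 scale in K451R and 0.14 in K450RK451R. Then CBX1 (0.065 and 0.076) and SETDB2 (0.097 and 0.11) were above 0 in these lines and lower with Dox in 2 of 4 lines. The direction of the other 4 genes held in all 4, but KDM4C was only at -0.0049 in K450RK451R.

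KDM4C, which demethylates trimethylated H3K9, came closest to the threshold. With Veh it had 60.2 CPM in the WT line, 63.5 in K450R, 62.2 in K451R, and 53.1 in K450RK451R. With Dox these became 55.6, 49.6, 49.2 and 48.1 CPM. The K450RK451R line with Veh was below the WT line with Dox, and in each line the Dox value was the lower one. The log2 fold change was -0.24 (SE 0.074, interval -0.39 to -0.083, adjusted p = 0.101 by edgeR across all genes). Leaving out each line in turn gave values from -0.28 to -0.20. Its relative KDM4A had 79.8, 86.0, 93.4 and 71.4 CPM with Veh in the WT, K450R, K451R and K450RK451R lines, and 84.9, 80.4, 77.6 and 89.1 CPM with Dox. The direction differed between lines, and the log2 fold change over them was 0.013 (interval -0.14 to 0.17).

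CBX1 had 89.1, 92.4, 88.6 and 75.0 CPM with Veh in the WT, K450R, K451R and K450RK451R lines, and 76.9, 73.4, 84.8 and 71.9 CPM with Dox. The counting interval of the ratio lay below 0 in the WT and K450R lines and included 0 in the others. Over the lines the log2 fold change was -0.17 (interval -0.30 to -0.027, edgeR adjusted p = 0.234). CBX3 had 91.2, 83.2, 91.9 and 85.4 CPM with Veh and 89.4, 97.5, 89.0 and 85.7 CPM with Dox in the same order of lines. CBX5 had 133, 142, 118 and 166 CPM with Veh and 137, 144, 123 and 165 CPM with Dox. For CBX3 only the K450R line moved beyond counting error under TMM scaling, by 0.23 on the log2 scale. For CBX5 the interval over the lines, also under TMM scaling, ran from 0.938-fold to 1.10-fold. Scaled by the library total, CBX5 was higher with Dox in all 4 lines, by 0.046 to 0.18 on the log2 scale.

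TRIM28 had 288, 310, 312 and 330 CPM with Veh in the WT, K450R, K451R and K450RK451R lines, and 299, 337, 354 and 358 CPM with Dox. The Dox value was the higher one in each line, and the WT line with Dox was below 3 of the Veh conditions. The log2 fold change over the lines was 0.12 (interval 0.012 to 0.23, edgeR adjusted p = 0.279). SETDB1, the methyltransferase that TRIM28 recruits, had 72, 73.1, 76.2 and 74.3 CPM with Veh and 72.5, 82.5, 76.7 and 83.0 CPM with Dox in the WT, K450R, K451R and K450RK451R lines. SETDB2 had 13.3 to 17.9 CPM with Veh and 12.5 to 16.5 CPM with Dox. Neither was past an unadjusted p of 0.05.

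SUV39H1 and SUV39H2 had 57 to 189 counts per condition, so that their counting intervals are wide. SUV39H1 went from 10.6 to 13.4 CPM in WT, from 13.7 to 14.4 in K450R, from 15.1 to 15.4 in K451R, and from 10.4 to 14.6 in K450RK451R. The 4 Dox values lay closer together (13.4 to 15.4 CPM) than the 4 Veh values (10.4 to 15.1 CPM). SUV39H2 went from 7.60 to 8.0 CPM in WT, from 7.77 to 10.0 in K450R and from 6.93 to 12.2 in K451R, but from 13.0 to 9.53 in K450RK451R. The K450RK451R line with Veh was thus higher than any other Veh condition. Over the lines the log2 fold changes were 0.23 (interval -0.046 to 0.51) for SUV39H1 and 0.15 (interval -0.21 to 0.52) for SUV39H2. Without the K450RK451R line the value for SUV39H1 was 0.14. That for SUV39H2 was 0.43 without K450RK451R, -0.056 without K451R and 0.095 without K450R.

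**Figure D3:**
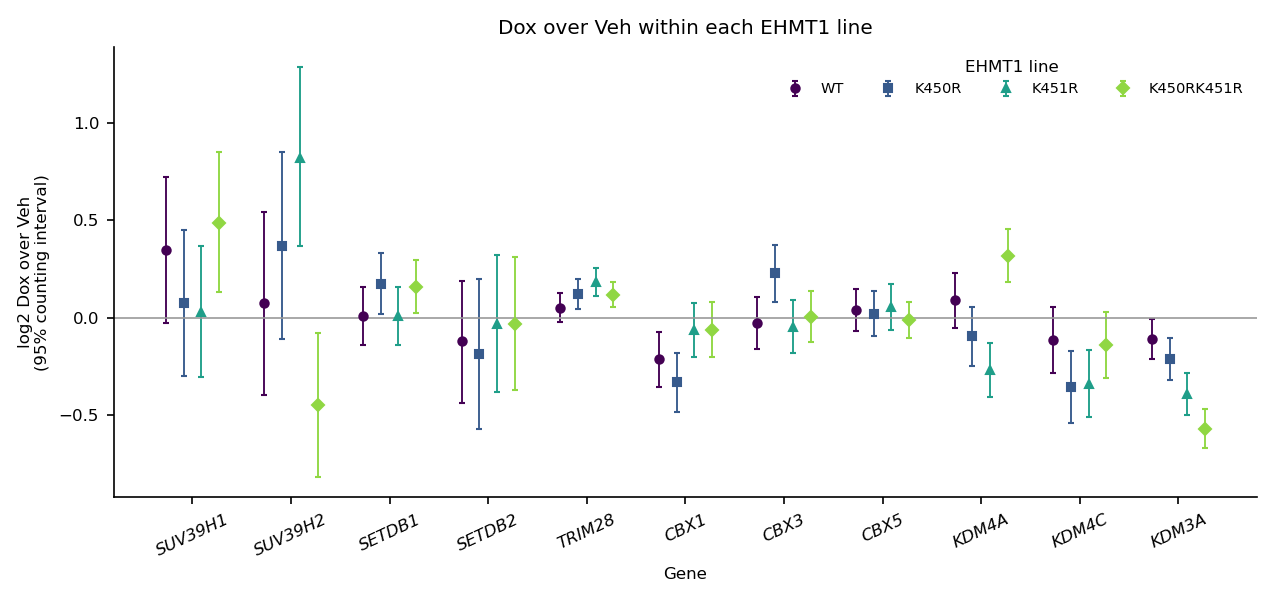
Log2 ratio of Dox to Veh in each line, with 95% counting intervals that cover counting error only, for the 10 genes and KDM3A. With the TMM scaling used here, KDM4C, CBX1 and KDM3A lie below 0 in all 4 lines (CBX1 in 2 of 4 when scaled by the library total), TRIM28 lies above 0, and SUV39H2 and KDM4A have lines on either side of 0.

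The nuclear long noncoding RNAs MALAT1 and NEAT1 moved with Dox as well, with log2 fold changes of -0.92 and -1.55 (edgeR adjusted p = 5.29e-09 and 4.42e-08). Their part in the values of KDM4C and CBX1 was not tested. The ratios within a line have no replicate behind them, and the intervals around them, as all counting intervals here, cover counting error only.

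Of 36 other genes of the pathway, listed by role, 33 passed the filter on low counts in both comparisons. PRDM16, MECOM and ATF7IP2 did not. Leaving EHMT1 aside, none of 32 was called by edgeR with siEHMT1. Of these 12 had positive and 20 negative log2 fold changes, with a median of -0.081. Unadjusted p was under 0.05 for 5 of the 32, beside 9.55% of all genes, and each was lower with siEHMT1: the SETDB1 cofactor ATF7IP, the HUSH subunit FAM208A, and the HP1-associated LRIF1, ATRX and LBR. LRIF1 had the largest difference, 22.8 ± 1.27 CPM with siNTC against 15.6 ± 1.40 CPM with siEHMT1 (SD, n = 2), or -0.55 on the log2 scale (edgeR adjusted p = 0.214).

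With Dox, KDM3A alone among the 32 was called. Unadjusted p was under 0.05 for 5 of the 32, beside 14.4% of all genes: KDM3A, the demethylase KDM7A and the reader UHRF2 had negative log2 fold changes (-0.26 for KDM7A and -0.20 for UHRF2), and LRIF1 and LBR had positive ones (0.29 and 0.27), opposite in sign to their values with siEHMT1. Of the other genes named above for siEHMT1, FAM208A (0.21) and ATF7IP (0.052) had positive values with Dox and ATRX (-0.10) a negative one. LBR averaged 24.3 ± 8.56 CPM with Dox and 20.0 ± 2.64 CPM with Veh (SD, n = 4 lines). The edgeR adjusted p with Dox was 0.118 for KDM7A, 0.270 for UHRF2, 0.238 for LRIF1 and 0.282 for LBR. The difference between the comparisons was not tested. KDM3A is a demethylase of the lower H3K9 methylation states and a coactivator of the androgen receptor. It fell from 162 to 150 CPM in the WT line, from 171 to 148 in K450R, from 158 to 120 in K451R, and from 174 to 117 in K450RK451R. All 4 Dox values lay below all 4 Veh values, and the ratios ran from -0.11 in WT to -0.57 in K450RK451R on the log2 scale. The log2 fold change over the lines was -0.32 (SE 0.066, interval -0.46 to -0.19, edgeR adjusted p = 0.00608, lower in 4 of 4 lines; 1.51% of all genes were called lower). Without the K450RK451R line it was -0.24 (edgeR adjusted p = 0.0806). In the siRNA samples KDM3A had 27.0 ± 3.12 CPM with siNTC and 21.6 ± 6.99 CPM with siEHMT1 (SD, n = 2), or -0.31 on the log2 scale (edgeR adjusted p = 0.605). By role, the demethylases had 5 negative values of 9 with Dox (median -0.090) and 7 of 9 with siEHMT1 (median -0.14). The HUSH complex, which works with SETDB1 on retroelements, had 2 of 4 in each comparison, and the partners of HP1 and TRIM28 had 6 of 10 in each. The other readers had 2 of 4 with Dox and 1 of 4 with siEHMT1, and the methyltransferases and their cofactors, EHMT1 included, had 2 of 6 and 5 of 6.

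The make-up of the HP1 family was then examined, as the share of each gene in the summed RPKM of CBX1, CBX3 and CBX5. CBX3 was above CBX1 in all 4 siRNA samples, and CBX1 was above CBX3 in all 8 stable-line conditions. In siNTC samples CBX1 made up 32.5% and 29.2%, CBX3 45.4% and 47.4%, and CBX5 22.0% and 23.4%. In siEHMT1 samples CBX1 made up 32.2% and 22.9%, CBX3 47.5% and 50.3%, and CBX5 20.2% and 26.8%. The low CBX1 share belonged to siEHMT1 sample 2, the same library as above. Over the Veh-treated lines CBX1 made up 50.7% ± 3.10, CBX3 32.6% ± 1.64 and CBX5 16.7% ± 2.85 (SD, n = 4). With Dox these were 47.2% ± 2.96, 35% ± 1.68 and 17.8% ± 2.45 (SD, n = 4). The CBX1 share was lower with Dox in each line, by most in K450R (53.2% with Veh, 44.8% with Dox), but the ranges of the Veh and Dox conditions overlapped. The shares depend on the exon length assigned to each gene, which was 15038 bases for CBX5 against 3044 for CBX1: without division by length, the median shares of CBX1, CBX3 and CBX5 were 14.3%, 34.1% and 51.7% in the 4 siRNA samples and 26.9%, 29.3% and 45.0% in the 8 stable-line conditions. By reads, CBX3 was then above CBX1 in 7 of the 8 stable-line conditions, so that the order of these genes in the lines rests on the lengths.

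**Figure D4:**
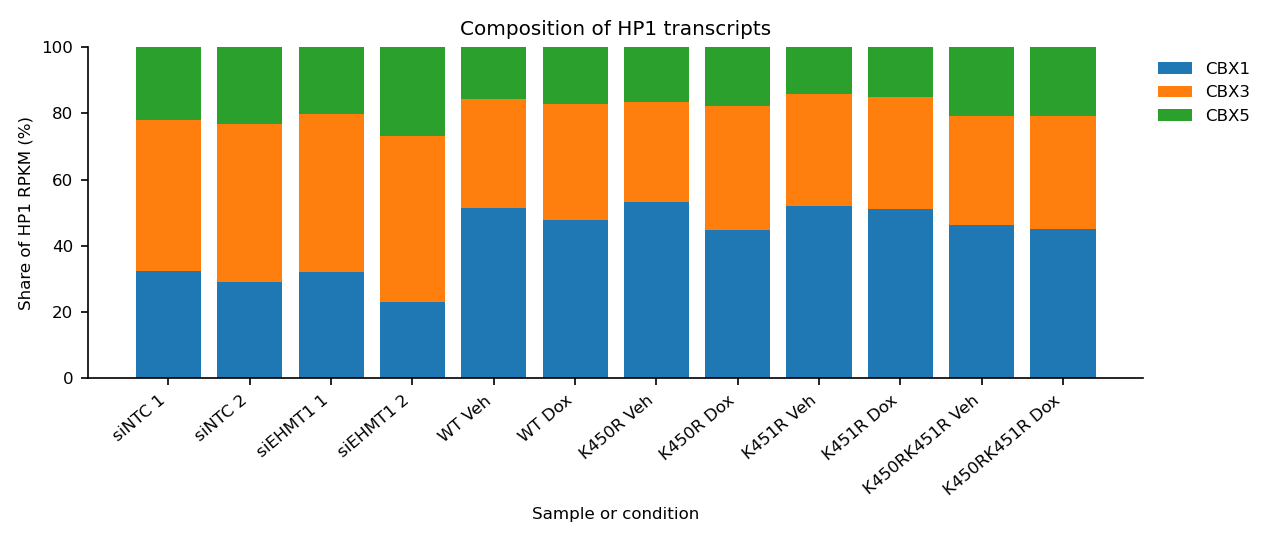
Share of CBX1, CBX3 and CBX5 in their summed RPKM, in percent, for each siRNA sample and stable-line condition. CBX3 (orange) is the largest part in the 4 siRNA samples and CBX1 (blue) in the 8 stable-line conditions, an order that depends on division by exon length.

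Between the other paralogues, RPKM ratios ran as follows. SUV39H1 stood at 0.872 to 1.20 times SUV39H2 in the siRNA samples and at 0.887 to 2.40 times in the stable lines. SETDB1 stood at 3.71 to 4.24 times SETDB2 and at 3.62 to 5.95 times, respectively. KDM4A stood at 4.10 to 5.01 times KDM4C in the siRNA samples and at 2.64 to 3.69 times in the lines, so that the sets did not overlap for this pair.

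Copies and overlaps limit some of these counts. Reads were 51 bases long, and 3.95% of the 51-base words of CBX3 transcripts and 2.91% of those of CBX1 also occur in transcripts of their pseudogenes. The 10 pseudogenes of CBX3 in the tables held counts equal to 25.9% of those of CBX3, the 5 of CBX1 7.35%, and the 1 of CBX5 0.121%. At the same locus, CBX3 shares 6.44% of its words with HNRNPA2B1, SUV39H1 18.2% with AF196970.3, SETDB1 8.89% with CERS2 and KDM4A 7.63% with KDM4A-AS1. The counting setting for strand is not given in the sources used here, so reads of such pairs may not be separable.

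Of the opposite-strand neighbours, those of CBX5 and CBX3 were called lower with Dox while the HP1 genes themselves were not. HNRNPA1 encodes a splicing factor and starts 60 bases from CBX5, beyond the 59-base stretch printed above. It fell from 43.2 to 33.1 CPM in WT, from 38.2 to 32.2 in K450R, from 40.2 to 30.9 in K451R, and from 30.3 to 22.0 in K450RK451R. The log2 fold change over the lines was -0.37 (edgeR adjusted p = 0.0185, lower in 4 of 4 lines), beside 0.026 for CBX5. HNRNPA2B1, a related RNA-binding protein whose gene overlaps the start of CBX3, fell from 84.9 to 76.6 CPM in WT, from 99.8 to 77.7 in K450R, from 98.2 to 76.9 in K451R, and from 83.6 to 73.4 in K450RK451R. Its log2 fold change was -0.26 (edgeR adjusted p = 0.0317, lower in 4 of 4 lines), beside 0.037 for CBX3.

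The difference itself, neighbour minus HP1 gene on the log2 scale, was -0.39 ± 0.085 for HNRNPA1 and CBX5 and -0.30 ± 0.21 for HNRNPA2B1 and CBX3 (SD, n = 4 lines), below 0 in all 4 lines in both. The two-sided exact sign-flip permutation test gave p = 0.125 for each, which is the smallest value that 4 lines allow. CAB39L minus SETDB2 was 0.23 ± 0.14, above 0 in all 4 lines (exact p = 0.125), and RP11-398C13.6 minus SUV39H2 was -0.16 ± 0.66 (exact p = 0.75). These are 4 pairs tested, and none can pass a threshold of 0.05. RN7SL525P, which starts 486 bases from TRIM28, had 0 counts in all 8 stable-line conditions and was not tested. The calls of HNRNPA1 and HNRNPA2B1 were lost with DESeq2 (adjusted p = 0.0753 and 0.0880). Without the K450R line the edgeR adjusted p was 0.0555 and 0.201, and without K451R it was 0.113 and 0.235. Without K450RK451R that of HNRNPA1 was 0.0698. With siEHMT1, HNRNPA2B1 had a log2 fold change of -0.28 (edgeR adjusted p = 0.417) and HNRNPA1 of -0.14 (edgeR adjusted p = 0.777). These values changed with 1 library left out. For HNRNPA2B1 they were -0.16 and -0.39 without siNTC sample 1 and 2, and -0.18 and -0.38 without siEHMT1 sample 1 and 2. For HNRNPA1 they were -0.26, -0.023, -0.054 and -0.24 in the same order.

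**Figure D5:**
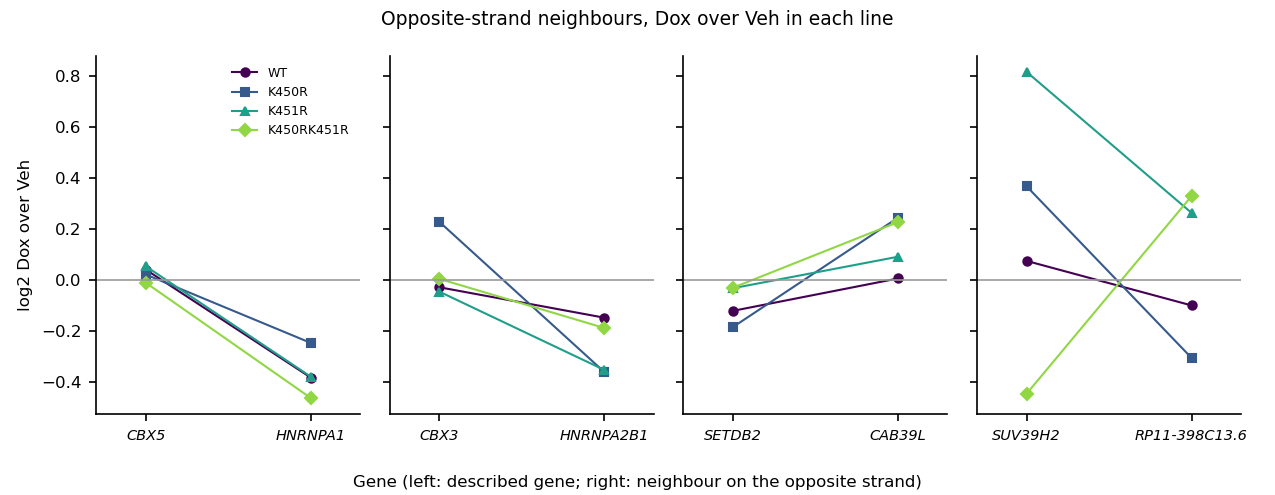
Log2 ratio of Dox to Veh in each line for 4 of the genes (left point) and their opposite-strand neighbours (right point). HNRNPA1 and HNRNPA2B1 lie below CBX5 and CBX3 in all 4 lines, and CAB39L lies above SETDB2.

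The genes with the widest spread over the 8 stable-line conditions were SUV39H2 (0.91 on the log2 CPM scale), SUV39H1 (0.56) and SETDB2 (0.52). For each, the other genes with a mean of at least 100 counts were ranked by Pearson's r over these conditions. SUFU (0.976), PIAS3 (0.972) and USP20 (0.936) were the most like SUV39H2, HTRA2 (0.973), HMGN3 (0.957) and MTDH (0.938) the most like SUV39H1, and HAGH (0.978), HES6 (0.970) and GCHFR (0.969) the most like SETDB2. The 8 points are 4 lines under 2 treatments, so that points of a line share its cells, and the genes were picked as the highest of 9145 or 9144, so these values are descriptions only.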

How the data were processed

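RNA-seq of 20 LNCaP samples was analysed (4 siRNA samples and 16 columns of 8 stable-line conditions). The authors made stranded total RNA libraries, sequenced 51-nucleotide single-end reads, mapped them to hg19 (GRCh37) and deposited 2 tables of raw counts per Ensembl gene, without normalization; the submitters' processing notes name FastQC 0.11.9, STAR 2.7.2 and featureCounts 1.6.4. The annotation release and the strand setting are not given in the sources used here. Columns were matched to samples by name, and the control spelled siNCT in places was taken as siNTC.

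The deposited counts were scaled by TMM, filtered by edgeR's default rule and tested by its quasi-likelihood method (R 4.3.3, edgeR 4.0.16) with Benjamini-Hochberg adjustment over all 14532 (siRNA) or 14105 (stable lines) genes. Genes were called at an adjusted p under 0.05. For the lines, the summed columns entered a model with line and treatment, so n = 4 lines. Dox to Veh ratios within a line carry 95% Clopper-Pearson intervals. RPKM used merged exon lengths of GENCODE 44 on GRCh37, in which 55538 of 57773 identifiers were found. Alternatives were DESeq2 1.42.0, limma-voom (limma 3.58.1), edgeR's legacy method, upper-quartile scaling, no filter or at least 1 CPM in 2 samples, the replicate or line terms, removal of 2 pseudogenes, and each sample or line left out. The procedures were also run on simulated counts with the same dispersion for every gene and no difference between lines. That run does not show how they behave at the spread of these samples.

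The genes described, the other pathway genes, markers and neighbours were chosen with earlier results of these data known. The rule for named genes was all 10 genes, called genes of the pathway list and EHMT1, opposite-strand genes starting within 1000 bases, and for the 3 genes with the widest range the 3 most correlated genes. The pathway genes with an unadjusted p under 0.05, MALAT1 and NEAT1 were added after their values were seen. PECAM1, fixed as a marker, was not analysed here. Depth ranged over 4168199 to 6272708 counts for the columns of the stable lines and 5593400 to 12438006 for the siRNA samples. At this depth counting error limits mainly SUV39H1, SUV39H2 and SETDB2.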

Additional observations from a re-analysis of the deposited data

Results flagged for a closer look

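SUV39H2 in the K450RK451R line with Veh, at 13.0 CPM, stood apart from the other 3 Veh lines (6.93 to 7.77 CPM). The gap to the nearest line was 0.861 of the whole range, above Dixon's critical value for 4 samples at the 95% level. It was the only such case among 20 groups of 4 lines examined, and chance alone flags about 1 group in 20.

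The ratios of Dox to Veh of 2 genes had opposite signs in 2 lines, each with a counting interval that excluded 0. The share of all genes for which this held was not determined. For SUV39H2 the log2 ratio was 0.82 in K451R (interval 0.37 to 1.28) and -0.45 in K450RK451R (interval -0.82 to -0.078). For KDM4A it was -0.27 in K451R (interval -0.41 to -0.13) and 0.32 in K450RK451R (interval 0.18 to 0.46). Each line has 1 independent sample per treatment, so the difference between lines was not tested.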

How the results depend on the processing

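None of the 10 genes was called with siEHMT1 under any of 12 alternatives (lowest adjusted p 0.0778, CBX1 without siEHMT1 sample 1). The siRNA samples with equal replicate numbers did not deviate from the group mean together (Pearson's r -0.0023 across genes). With 2 samples in each group, this cannot show whether the replicate numbers pair the samples. With the replicate block, 118 genes were called instead of 19. DESeq2 and the fit with no filter on low counts called 12 each, and leaving out a sample gave 38 to 110. TRIM28 changed sign with upper-quartile scaling (0.015). Its log2 fold change was -0.058 to 0.042 with a sample left out, that of CBX3 -0.13 to 0.036, CBX5 -0.24 to 0.074, KDM4A -0.12 to 0.23, SETDB1 0.014 to 0.20 and KDM4C -0.15 to -0.016.

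With Dox, DESeq2 called 140 genes and the model with no line term 4, instead of 298. Leaving out a line gave 114 to 501. Keeping the columns apart, with line and the replicate block, called 1900 genes and 3 of the 10 (KDM4C, CBX1 and TRIM28), but it takes columns that differ by counting noise as replicates. With a line left out the log2 fold change was -0.094 to 0.11 for KDM4A, -0.023 to 0.066 for CBX3 and -0.056 to 0.43 for SUV39H2. KDM3A was called under 10 of 12 alternatives (not with no line term, edgeR adjusted p = 0.244, or without the K450RK451R line). HNRNPA1 was called under 7 and HNRNPA2B1 under 8. Each of these counts includes the fit with the columns kept apart. Of 160 Dox to Veh ratios within a line, 5 left their counting interval, each when scaled by the library total. They were those of TRIM28 and CBX5 in K451R and K450RK451R, and of CBX3 in K450RK451R. Under this scaling CBX1 and SETDB2 were above 0 in K451R and K450RK451R, but inside their counting intervals. HP1 medians over all 12 samples and conditions without division by length were 23.1% (CBX1) and 46.9% (CBX5). The cause of these changes was not tested. Depth limits SUV39H1, SUV39H2 and SETDB2 most.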
